A study of Mus musculus with 8 samples.

Results

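Amino acids cross cell membranes on carrier proteins of the solute carrier (SLC) superfamily, and this account follows the transcripts of 7 of its families, Slc1, Slc3, Slc6, Slc7, Slc36, Slc38 and Slc43, in wounded mouse corneas. The genes were taken by name, as every row of the deposited table whose symbol starts with 1 of these family names followed by a number, leaving out Slc7a2. That gave 41 of 16091 genes. Of these, 40 encode carriers, counting the carrier subunit Slc3a2. Slc7a6os, an opposite-strand neighbour of Slc7a6 whose symbol fits the pattern, does not encode a carrier. Whole corneas labelled Opn5-/- (4 libraries, lettered A to D), which lack the gene for the violet-sensitive photopigment opsin 5, were compared with corneas labelled wild-type (4 libraries, A to D). All 8 had their epithelium debrided 12 hours before collection. All 8 sample titles hold the word Light, which no label explains. The labels used here give no strain, age, sex or details of lighting, so strain and genotype cannot be told apart, and a null allele carried throughout the body does not say in which cells opsin 5 was missing. No value of Opn5 itself is used here, so genotype is known from the labels only. The labels also leave unsaid whether corneas of 1 genotype were taken from different mice, and the spread on which each p-value rests may therefore be technical.

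The 7 families divide the work by substrate and by the gradient they use. Slc7a5, Slc7a6, Slc7a7, Slc7a8 and Slc7a11 are light chains that reach the plasma membrane only when joined to a heavy chain, Slc3a2 (4F2hc, CD98), and they exchange 1 amino acid for another. Slc7a1 and Slc7a3 carry arginine and lysine without a heavy chain. Many Slc1 and Slc38 carriers use the sodium gradient for glutamate, glutamine and small neutral amino acids, and many Slc6 carriers use sodium and chloride. In the Slc36 family Slc36a1 uses protons, and in the Slc43 family Slc43a1 and Slc43a2 facilitate the movement of large neutral amino acids. Cystine taken up by Slc7a11 in exchange for glutamate is the source of cysteine for glutathione in many cells, and several carrier genes are known targets of ATF4, a transcription factor of the amino acid starvation response that binds the CARE motif, and of NRF2 (Nfe2l2), which binds the antioxidant response element.

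The promoters of Slc7a11, Slc3a2 and Slc7a7 are shown because the windows searched differ in whether CARE occurs. These genes encode the light chain and the heavy chain of the cystine carrier, and the next most raised light chain. Each sequence is RefSeq's (GRCm38.p6), 5′ to 3′ on the gene's own strand, from 250 bases before to 50 bases after the annotated start, and capitals mark matches to CARE, searched as TGATGNAA on both strands. Slc7a11 lies at chr3:50443564-50443863 on the minus strand, Slc3a2 at chr19:8713848-8714147 on the minus strand, and the first of the annotated Slc7a7 promoters at chr14:54417895-54418194 on the minus strand.
Slc7a11: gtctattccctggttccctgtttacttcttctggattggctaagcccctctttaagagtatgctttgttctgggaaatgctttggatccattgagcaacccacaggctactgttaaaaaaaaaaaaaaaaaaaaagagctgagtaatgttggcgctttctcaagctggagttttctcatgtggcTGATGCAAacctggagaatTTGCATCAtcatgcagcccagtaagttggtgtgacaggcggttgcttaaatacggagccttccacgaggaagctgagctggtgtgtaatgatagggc
Slc3a2: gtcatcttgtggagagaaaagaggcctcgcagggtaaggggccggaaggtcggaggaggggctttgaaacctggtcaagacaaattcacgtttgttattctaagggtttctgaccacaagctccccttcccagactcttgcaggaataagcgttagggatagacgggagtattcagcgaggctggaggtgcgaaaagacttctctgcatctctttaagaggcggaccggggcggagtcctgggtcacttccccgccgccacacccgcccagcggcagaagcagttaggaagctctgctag
Slc7a7: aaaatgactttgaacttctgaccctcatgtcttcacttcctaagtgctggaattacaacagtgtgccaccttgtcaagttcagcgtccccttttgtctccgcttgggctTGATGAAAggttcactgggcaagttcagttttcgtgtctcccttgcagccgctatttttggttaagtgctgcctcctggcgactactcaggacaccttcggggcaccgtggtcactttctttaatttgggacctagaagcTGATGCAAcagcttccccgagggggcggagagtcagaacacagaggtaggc

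The Slc7a11 window held 2 CARE matches in opposite orientation, at positions -66 to -59 and -47 to -40 from the start. The Slc7a7 window also held 2, at -141 to -134 and across the start from -1 to 7, and the Slc3a2 window held none in these letters. That Slc3a2 window lies inside the gene as GENCODE M21 places it (chr19:8706882-8723369, minus strand). The 5′ end given there, at 8723369, was not searched. Of the 5 annotated Slc7a7 promoters, only the one shown held 2, another held 1 and 3 held none. The promoter with 1 overlaps the one shown, and its match is the same bases as the match across the start. Of 32851 promoters of this length, 3.97% held a CARE match and 23, or 0.0700%, held 2 or more. The windows shown were picked for their CARE content, so these shares do not measure how unusual they are. The antioxidant response element, searched as TGACNNNGC, occurred in 12.4% of all promoters, and the AP-1 motif, searched as TGANTCA, which can overlap it, in 7.81%. Neither was found in these 3 windows. Among the 31 member genes with a promoter entry (49 promoters), CARE was found at Slc7a11, Slc7a7 and Slc1a4. By promoter, 8.16% of the 49 held CARE, 18.4% the antioxidant response element and 14.3% AP-1, and these shares were not tested. The antioxidant response element was found at Slc6a13, Slc36a1, Slc38a2, Slc43a1, Slc6a9, Slc7a1 and Slc7a6, and AP-1 at Slc38a7, Slc6a12, Slc38a10, Slc6a14, Slc6a17 and Slc7a1.

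All 41 genes passed the filter on low values, and all had a mean of at least 10 normalized counts in 1 genotype or both. In Opn5-null corneas 10 were higher and 3 were lower than in wild-type corneas by limma at a Benjamini-Hochberg adjusted p below 0.05 over all 16085 genes tested. The higher genes were Slc7a11, Slc6a13, Slc1a7, Slc6a12, Slc7a7, Slc38a1, Slc43a2, Slc3a2, Slc43a3 and Slc38a7, and the lower ones were Slc6a20a, Slc6a6 and Slc7a5. The 13 called genes were 31.7% of the 41, and 32.4% of all genes tested were called. Higher calls were 24.4% of members beside 18.8% of all genes, and lower calls were 7.32% beside 13.5%. The last background share moved with single libraries, to 6.70% without wild-type A, 7.72% without C and 8.01% without D, with 3 members called lower in each case. As a set, then, the carriers were called about as often as other genes, and what follows concerns single carriers. After quantile normalization or upper-quartile scaling, which moved the median log2 difference of all genes from -0.02 to -0.13, the members split into 9 higher and 7 lower (17.1% lower), while lower calls over all genes rose to 23.3% and 22.8%. The median log2 difference (null minus wild-type) over the 41 genes was 0.19. For 15 of the 41 (36.6%) the 4 null libraries and the 4 wild-type libraries did not overlap, a separation seen in 38.4% of all genes. In 10 of them the null libraries lay higher (20.3% of all genes did so), and in 5 they lay lower (18.1% of all genes). The median absolute difference was 0.38 in members and 0.32 in all genes.

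**Figure D1:**
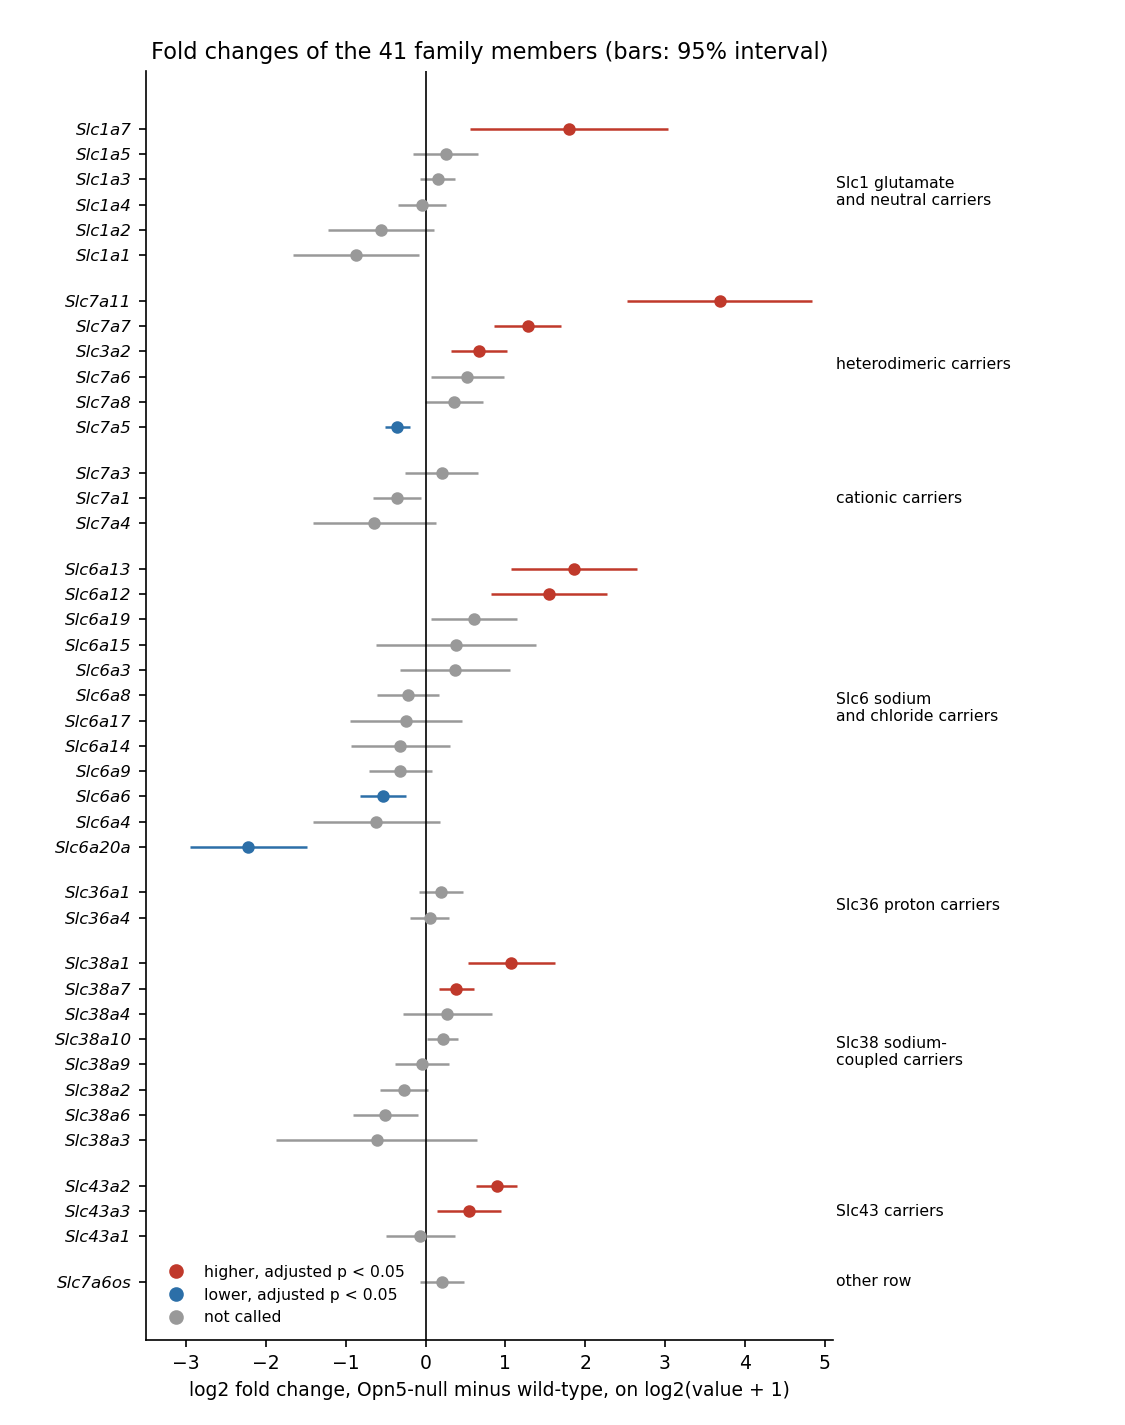
Log2 difference (Opn5-null minus wild-type, on the log2(normalized count + 1) scale) of each of the 41 genes, ordered within families, with 95% confidence intervals from limma and colours for called genes. Slc7a11 lies farthest to the right at 3.69 and Slc6a20a farthest to the left at -2.22, and 28 genes were not called.

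The libraries also differed in depth and in cell markers. Recovered reads per library ran from 21111715 to 28219234. Normalized counts summed to 28325797 in null library A and to between 22502931 and 25023881 in every other library. Null A was the highest null library for 32.7% of all genes and for 24.4% of the 41. The labelled tissue held its defining transcripts in both genotypes: Krt12, the corneal epithelial keratin, averaged 53816 ± 36077 normalized counts (SD, n = 4) in null and 130431 ± 41965 in wild-type corneas, and the keratocyte gene Kera averaged 7508 ± 2289 and 4600.2 ± 1012. Of 10 neutrophil markers tested, 9 were higher in null corneas, with a summed level of 55756 to 196698 normalized counts per library against 17204 to 33708, and of 11 monocyte and macrophage rows all 11 were higher (41339 to 112437 against 9266 to 15154). Of 7 T and NK lymphocyte markers, 5 were higher (266 to 744 against 75.5 to 106). Of 8 corneal epithelial markers, 2 were lower and none higher (103903 to 399393 against 482288 to 648152), and of 7 conjunctival and goblet cell markers 5 were lower (10440 to 45420 against 82926 to 115119). Of 7 lens markers 6 were lower (915 to 1512 against 1742 to 5949). Among the other 6 lists, 2 of 7 keratocyte markers were higher and 1 lower (Aldh1a1, 3.27-fold), 2 of 3 blood vessel markers were higher, and lower calls numbered 2 of 7 for nerve and Schwann cells, 2 of 5 for melanocytes, 1 of 5 for corneal endothelium and 1 of 2 for red blood cells. No gene tested in the 12 lists was at 0 in a whole group. Library D of the null group stood apart, with a mean epithelial marker level of -2.44 on the log2 scale relative to the wild-type mean, against -0.44 to -1.31 in the other 3, and it was the highest null library for 21 of the 41 genes (51.2%), against 27.7% of all genes. In whole tissue, fewer cells of a type and less RNA per cell cannot be told apart. The part of these cell markers in the carrier results was not tested.

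Slc6a14, which concentrates neutral and cationic amino acids against their gradients, was the most abundant carrier transcript per kilobase of exon in both genotypes and in all 8 libraries. It stood at 6082 ± 2239 normalized counts per kilobase (SD, n = 4) in null and 7130 ± 598 in wild-type corneas. It made up 49.2% ± 2.53 of the summed per-kilobase level of the 40 carriers in wild-type corneas and 40.8% ± 9.30 in null corneas, and only 26.9% in null library D. The next places in wild-type corneas were held by Slc38a2 at 1631 ± 140.0, Slc6a6 at 922 ± 156, Slc3a2 at 826 ± 36.9, Slc1a1 at 668 ± 90.8 and Slc7a5 at 623 ± 30.0 normalized counts per kilobase. Slc3a2 and Slc6a6 lie within their spread of each other in that order, as do Slc1a1 and Slc7a5. These places and shares depend on counting all exons of a gene. The exons span 8257 bases in Slc1a1, against 3800 in its longest coding transcript. For Slc38a2 these lengths are 8838 and 4660, and for Slc6a14 both are 3434. The order by transcript length is not given here and can differ. In null corneas Slc38a2 (1367 ± 243), Slc3a2 (1345 ± 329) and Slc7a11 (1329 ± 738) followed Slc6a14 with no difference beyond their spread. Slc7a11 thus ranked 4 in null corneas and 14 in wild-type corneas, where its level was 101 ± 51.7 per kilobase. The summed level of the 40 carriers was 14556 ± 3047 in null and 14473 ± 491 in wild-type corneas. It includes the heavy chain Slc3a2, at 9.33% ± 1.89 of the sum in null and 5.71% ± 0.12 in wild-type corneas.

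Slc7a11 (xCT, chr3:49892526-50443614, minus strand in GENCODE M21, GRCm38), the light chain that brings in cystine, differed most. Its normalized counts in null libraries A to D were 32085, 15669.8, 7358 and 18916, and in wild-type libraries A to D they were 650.4, 2209.9, 982 and 1806. Every null library lay above every wild-type library, with null C the lowest of its group and wild-type B the highest of its own, and the null libraries spread widely. The means were 18507 ± 10277 and 1412 ± 720.4 (SD, n = 4), a 13.1-fold ratio, and the log2 difference was 3.69 ± 0.51 (SE; limma adjusted p = 0.0012). It stayed called under all 20 alternatives, and without any 1 library the log2 difference was 3.36 to 4.07. Within each genotype the order of libraries by Slc7a11 (A, D, B, C in null and B, D, C, A in wild-type) was the order by the neutrophil list and by the monocyte and macrophage list. These lists order the libraries alike, so this is 1 match. It was found among the orders of 22 members and 12 lists. Slc3a2 had the same order in null corneas only, and Slc6a12 and Slc43a3 in wild-type corneas only. Whether this order and the Slc7a11 difference share a source was not tested. A gene of uncertain status, Gm37498, overlaps Slc7a11 on the same strand with a mean of 54.0 normalized counts.

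**Figure D2:**
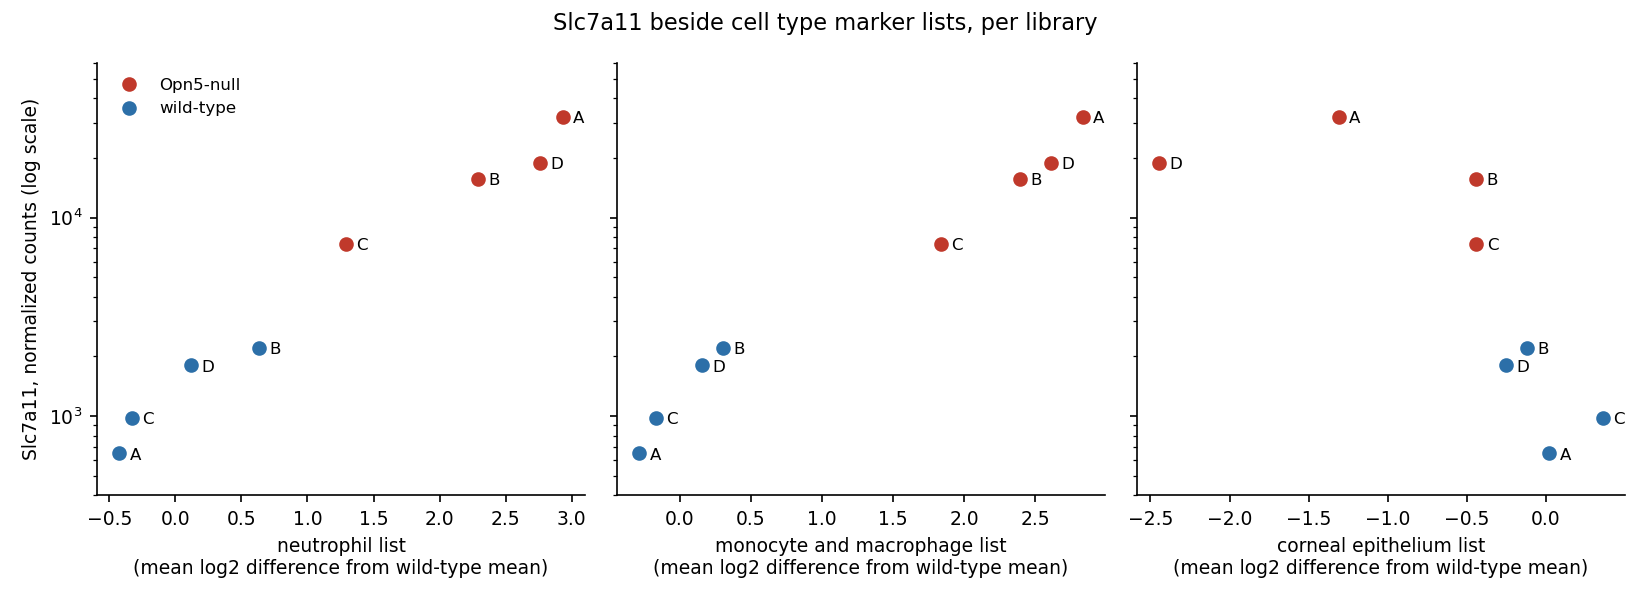
Slc7a11 normalized counts per library (log axis) against the mean log2 level, relative to the wild-type mean, of the neutrophil, monocyte and macrophage, and corneal epithelium marker lists, with 1 lettered point per library and colours for genotypes. In both leukocyte panels the null libraries lie above and to the right of the wild-type libraries and each genotype's libraries keep the same order, and in the epithelium panel null D lies farthest left at -2.44.

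Slc3a2, the heavy chain that all these light chains need (chr19:8706882-8723369), rose with a smaller fold. Null libraries A to D held 6322, 4190.1, 3629.5 and 4849.9 normalized counts and wild-type libraries held 2879, 3088, 2776 and 2923. The groups did not overlap, and null library A was highest here as for Slc7a11. The ratio was 1.63-fold and the log2 difference 0.67 ± 0.15 (SE; limma adjusted p = 0.0119). Per kilobase, the 5 light chains together stood at 2440.3 ± 762 in null and 1153 ± 46.5 in wild-type corneas, or 1.79 ± 0.16 and 1.40 ± 0.04 per Slc3a2. Without Slc7a11 the sums were 1111 ± 144 and 1051 ± 40.1, within the spread of the null libraries. Slc7a11 made up 68.1%, 53.9%, 32.7% and 50.9% of light chain transcripts in null libraries A to D and 4.07%, 13.5%, 6.47% and 10.8% in wild-type libraries. The groups did not overlap, and in null library C Slc7a11 and Slc7a5 had nearly equal shares (32.7% and 32.0%). Dividing by the longest coding transcript instead of all exons, a choice added after seeing the data, gave a mean share for Slc7a11 of 57.3% and 11.2%, against 51.4% ± 14.6 and 8.72% ± 4.24.

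**Figure D3:**
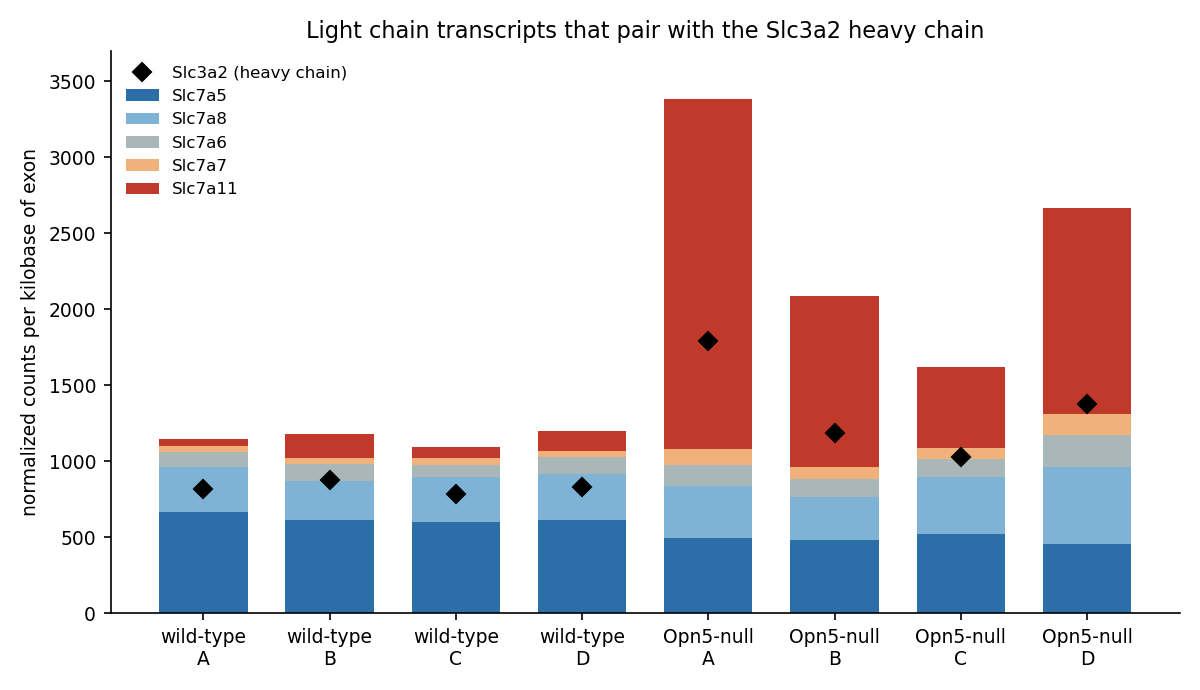
Normalized counts per kilobase of exon of the 5 Slc3a2-linked light chains, stacked in 1 bar per library, with a diamond for Slc3a2. Slc7a5 is the largest segment in all 4 wild-type libraries, and Slc7a11 is the largest in all 4 null libraries, though barely in null C (32.7% against 32.0%).

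Of 6 heterodimeric carrier genes, 3 rose (Slc7a11, Slc7a7 and Slc3a2), Slc7a5 fell and 2 were not called, with a median log2 difference of 0.60 beside -0.02 for all genes. Slc7a7 (y+LAT1, chr14:54369442-54417780), which exports arginine and lysine in exchange for neutral amino acids and sodium, held 341, 275, 258 and 456 normalized counts in null libraries A to D and 132, 117, 143 and 141 in wild-type libraries. All null libraries lay above all wild-type ones, a 2.49-fold ratio of means (log2 1.28 ± 0.18, SE; limma adjusted p = 0.0013). Oxa1l overlaps Slc7a7 on the opposite strand at a mean of 589 normalized counts, and since no source used here states whether counting used strand, the Slc7a7 values are uncertain to that extent. Slc7a6, the related y+LAT2, also lay higher in every null library but was not called (log2 0.52, limma adjusted p = 0.0777). The authors' own adjusted p-values did call Slc7a6 higher. Slc7a8 (LAT2), which exchanges neutral amino acids, was not called either (log2 0.35, 95% interval -0.01 to 0.72).

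Slc7a5 (LAT1, chr8:121881150-121907694), the main importer of leucine and other large neutral amino acids, moved the other way by a small and even step. Its normalized counts were 1832, 1789.8, 1922 and 1692 in null libraries A to D and 2472, 2272, 2217 and 2280.4 in wild-type libraries. The groups did not overlap and varied little inside themselves, with a 1.28-fold lower mean in null corneas (log2 -0.35 ± 0.07, SE; limma adjusted p = 0.0059). Its share of the light chains was 21.7% ± 7.75 in null and 54.1% ± 3.06 in wild-type corneas. Slc43a2 (LAT4, chr11:75531694-75577575), a facilitator that lets large neutral amino acids pass down their gradient, held 1257, 1218, 1131 and 1365 normalized counts in null libraries and 614, 572, 724 and 783 in wild-type libraries. Again no libraries overlapped, and the 1.85-fold rise had the lowest adjusted p of the 41 genes (log2 0.89 ± 0.11, SE; limma adjusted p = 0.0008). Slc43a3, whose human protein carries purine nucleobases rather than amino acids, held 332, 263, 198 and 333 against 174, 207, 177 and 196. Here null library C fell among the wild-type libraries, and the 1.49-fold difference (log2 0.55 ± 0.18, SE; limma adjusted p = 0.0428) passed under only 8 of 20 alternatives. It was lost when any 1 library other than null C was left out. Slc43a1 (LAT3) was not called at a mean of 26.9 and 28.2 normalized counts.

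None of the 3 cationic Slc7 genes was called, and their median log2 difference was -0.36 (-0.23 without null library D). Slc7a1 (CAT-1), the widespread arginine importer, held 2943, 3172, 3240.4 and 2182 normalized counts in null libraries A to D and 3569, 3437, 4066 and 3549.9 in wild-type libraries. Every null library lay below every wild-type library, but the log2 difference of -0.36 ± 0.13 (SE) had a limma adjusted p of 0.0662. Without null library C it was called (log2 -0.42, adjusted p = 0.0438), as it was after quantile normalization or upper-quartile scaling. Slc7a3 (CAT-3), at 69.7, 85.3, 111 and 112 against 100.2, 72.6, 71.7 and 81.3 normalized counts, overlapped between genotypes (log2 0.20, 95% interval -0.26 to 0.66). Slc7a2 (CAT-2), the inducible arginine carrier of activated macrophages, is outside the 41 and stood at 1414 ± 775 in null and 294 ± 44.9 normalized counts in wild-type corneas (4.80-fold; limma adjusted p = 0.003).

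**Figure D4:**
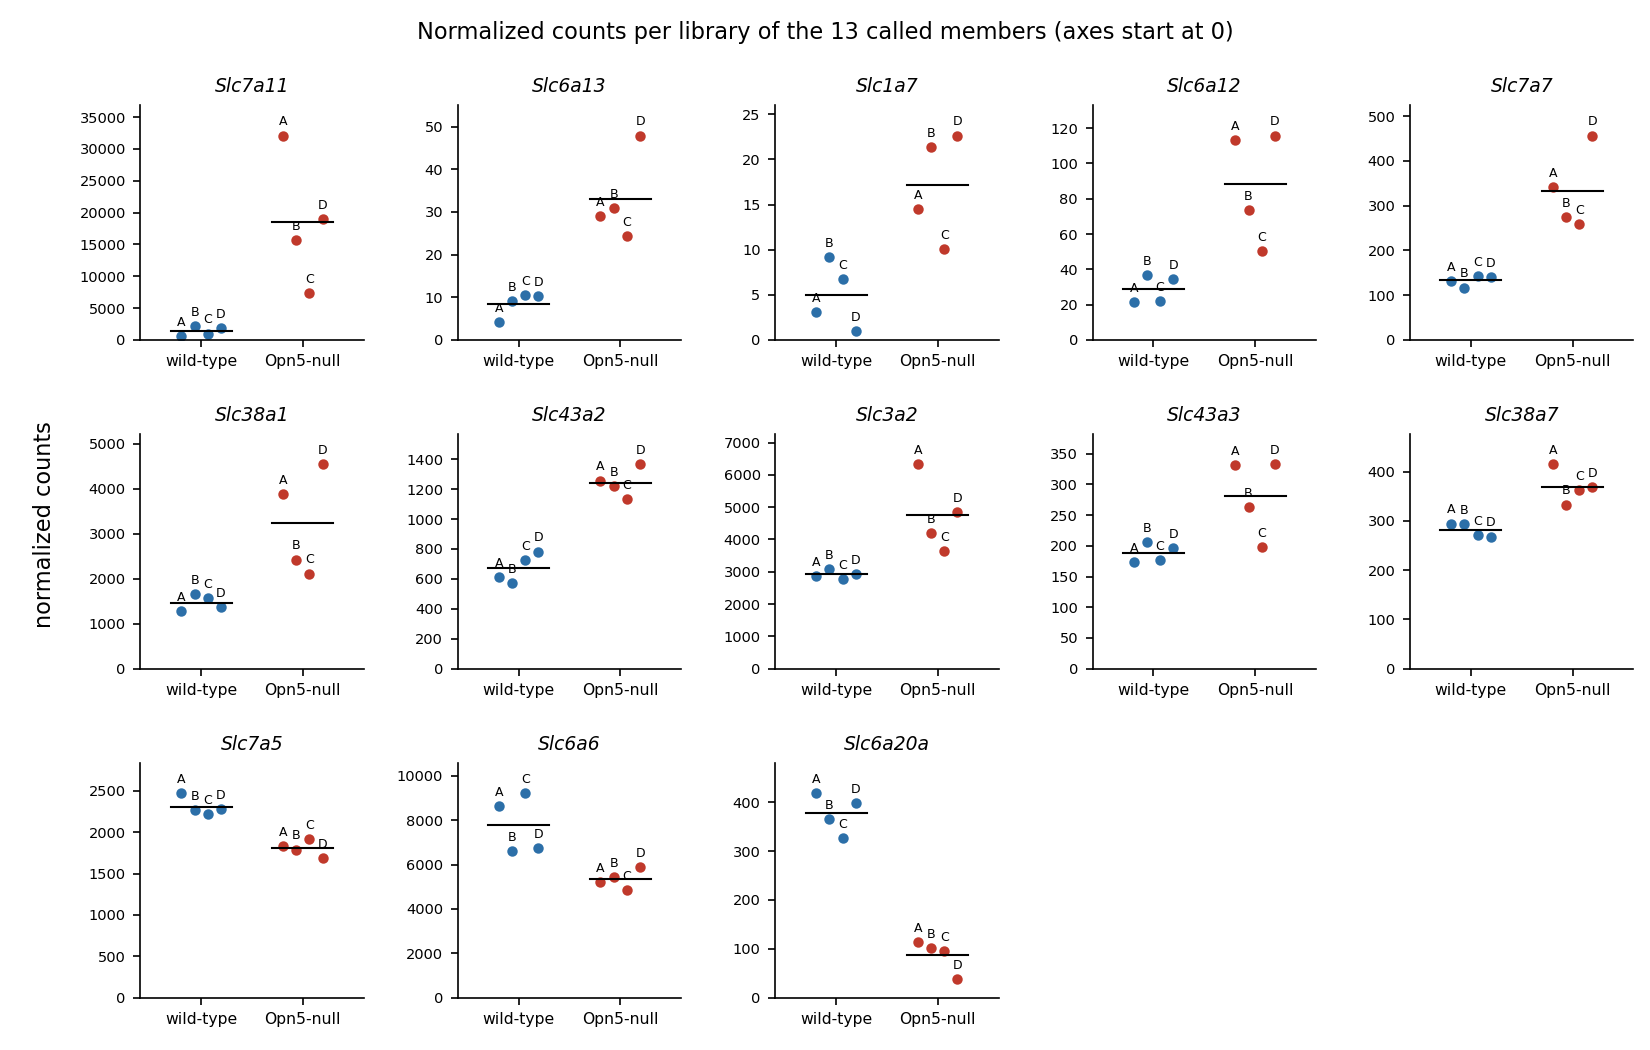
Normalized counts per library of the 13 called genes, with 1 point and letter per library and a line at each group mean; each vertical axis starts at 0. The genotypes overlap for Slc43a3 and for no other gene shown.

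The Slc6 family held 12 genes, of which 2 rose, 2 fell and 8 were not called, with a median log2 difference of -0.23 (-0.032 without null library D). Slc6a20a (SIT1, chr9:123634770-123678885), which carries proline and other imino acids, fell the most of all 41 genes. Its normalized counts were 113, 101, 94.6 and 37.4 in null libraries A to D and 418, 366, 326 and 398 in wild-type libraries. The highest null library (A) lay far below the lowest wild-type library (C), and null library D was the lowest of all. The mean was 4.36-fold lower in null corneas (log2 -2.22 ± 0.32, SE; limma adjusted p = 0.0015). Ccr9 overlaps it on the opposite strand at a mean of 51.7 normalized counts and Gm47171 on the same strand at 15.1, each below the null mean of 86.5. Slc6a6 (TauT), the taurine carrier, held 5218, 5432, 4850.5 and 5869 in null and 8631, 6589, 9216 and 6759 normalized counts in wild-type libraries. The groups did not overlap, the wild-type libraries fell into a higher pair (A and C) and a lower pair (B and D), and the mean was 1.46-fold lower in null corneas (log2 -0.53 ± 0.13, SE; limma adjusted p = 0.0131).

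The 2 Slc6 genes that rose were the neighbours Slc6a13 and Slc6a12, which lie 5342 bases apart on chromosome 6 in the same orientation with no other gene of the table between them. Slc6a13 (GAT2), a carrier of GABA and taurine, held 29.0, 30.8, 24.3 and 47.9 normalized counts in null and 4.09, 9.19, 10.5 and 10.3 in wild-type libraries. Slc6a12 (BGT1), which carries the osmolyte betaine and GABA, held 113, 73.5, 50.2 and 116 in null and 21.5, 36.8, 22.0 and 34.6 in wild-type libraries. Both were low, and for both every null library exceeded every wild-type library, with ratios of 3.87-fold (log2 1.86 ± 0.35, SE; limma adjusted p = 0.0047) and 3.07-fold (log2 1.55 ± 0.32; adjusted p = 0.0073). Slc6a14 held 29214, 22847, 20798 and 10680.1 in null and 24221, 26425, 21721 and 25574 in wild-type libraries. The groups overlapped and null library D was the lowest of the 8, and the log2 difference of -0.32 had a 95% interval of -0.94 to 0.31 (limma adjusted p = 0.404). Slc6a19 (B0AT1), a neutral amino acid carrier, had a log2 difference of 0.60 and was not called (limma adjusted p = 0.0801). The glycine carrier Slc6a9, the creatine carrier Slc6a8, the neutral amino acid carriers Slc6a15 and Slc6a17, and the dopamine and serotonin carriers Slc6a3 and Slc6a4 overlapped between genotypes and were not called, with log2 differences from -0.62 to 0.38.

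Of 8 Slc38 genes, many of which couple glutamine and other neutral amino acids to sodium, 2 rose and none fell. Their median log2 difference was 0.09. Slc38a1 (SNAT1, chr15:96571418-96642913) held 3879.6, 2429, 2116 and 4544 normalized counts in null and 1284, 1668, 1562 and 1367 in wild-type libraries. The groups did not overlap, null libraries A and D stood above B and C, and the ratio was 2.21-fold (log2 1.08 ± 0.24, SE; limma adjusted p = 0.0109). Its neighbour Slc38a2 (SNAT2), 44478 bases away with no gene of the table between, held 14508, 13152, 10931 and 9739 against 14706, 14092, 15916 and 12948. These overlapped, and the log2 difference of -0.27 (95% interval -0.57 to 0.04) was not called (limma adjusted p = 0.153), though it was after quantile normalization (-0.49) and upper-quartile scaling (-0.38). Slc38a7 (SNAT7), which exports glutamine and asparagine from lysosomes, held 415, 333, 362 and 368 in null and 295, 294, 271 and 268 in wild-type libraries. It did not overlap, at a 1.31-fold higher mean (log2 0.39 ± 0.10, SE; limma adjusted p = 0.0162), and it was not called without wild-type library D (adjusted p = 0.0514). Slc38a10 held 1908, 2032, 2147 and 2449.8 against 1807, 1766, 1822 and 1940.3 and overlapped by 1 null library (log2 0.21, adjusted p = 0.0922). Slc38a3, Slc38a4, Slc38a6 and the lysosomal arginine sensor Slc38a9 were not called, with log2 differences from -0.61 to 0.27. The authors' own adjusted p-values did call Slc38a6 lower.

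In the Slc1 family of 6 genes only Slc1a7 rose. Slc1a7 (EAAT5), a glutamate carrier and chloride channel known from the retina, was scarce, at 14.5, 21.3, 10.0 and 22.6 normalized counts in null and 3.07, 9.19, 6.69 and 0.934 in wild-type libraries. The groups did not overlap but met closely at null C and wild-type B. The 3.44-fold ratio rested on 67 reads in null and 21 in wild-type corneas (log2 1.80 ± 0.55, SE; limma adjusted p = 0.0353), and the call was lost when null library A, B or D or wild-type library A or D was left out. Slc1a1 (EAAT3), which takes up glutamate and cysteine, held 3687, 4324, 3783 and 1330.2 in null and 5310.4, 5628, 4651 and 6456 in wild-type libraries. Every null library lay lower, null library D far below the other 3, and the log2 difference of -0.87 ± 0.35 (SE) had a limma adjusted p of 0.0854. Without null library D the difference was smaller, -0.48, and was called (adjusted p = 0.0118). Slc1a5 (ASCT2), the glutamine exchanger, held 1001.5, 819, 767 and 1359 against 811, 859, 689 and 887 and overlapped (log2 0.25, 95% interval -0.15 to 0.66). Slc1a2, Slc1a3 and Slc1a4 were not called, with log2 differences of -0.56, 0.15 and -0.04.

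Neither Slc36 gene was called. Slc36a1 (PAT1), found on lysosomes, moves small neutral amino acids with protons. It held 508, 397, 363 and 384 against 342, 335, 356 and 404 normalized counts and overlapped (log2 0.19, 95% interval -0.09 to 0.47). Slc36a4 (PAT4) held 851, 958, 955 and 1207 against 999, 953, 922 and 932 normalized counts (log2 0.05, 95% interval -0.19 to 0.29). Its sign turned without null library D (-0.048) and after quantile normalization or upper-quartile scaling (-0.040 and -0.065). Of the members not yet described, Slc7a4 (log2 -0.64) and Slc7a6os (0.20) were not called.

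Genes that handle the same amino acids inside the cell were read from 5 lists, with log2 differences and limma calls from the fit above. Over all genes tested, 18.8% were called higher and 13.5% lower. The counts of these lists, and of the families above, were not tested against those shares. Of 17 other amino acid carriers tested, 6 rose and 1, Slc25a13, fell (median log2 0.11), the fall being lost without null A or wild-type A, B or C. Slc16a10 (TAT1), an aromatic amino acid facilitator, was 2.34-fold higher, and the mitochondrial glutamate carrier Slc25a22 was 1.87-fold higher, beside Slc7a2 above. Of 18 glutathione genes, 4 rose and 5 fell (median 0.05). Nfe2l2, which encodes NRF2, was 2.77-fold higher, while glutathione synthetase Gss was 2.25-fold lower and Nqo1, a known NRF2 target, was 2.54-fold lower. Of the genes chosen after their values were seen, Hmox1 was 3.42-fold higher, glutathione reductase Gsr 2.56-fold higher and Gclc, the catalytic subunit of the first step of glutathione synthesis, 1.25-fold lower. Gclc was near the threshold (limma adjusted p = 0.0404), and its partner subunit Gclm was not called (adjusted p = 0.831). The 5 lower calls of this list became 2 without null B, wild-type B or wild-type C and 3 without null A, wild-type A or wild-type D.

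Of 38 GCN2 and ATF4 response genes, 9 rose and 5 fell (median 0.01), beside 18.8% and 13.5% of all genes tested. Cebpb was 5.95-fold higher, Ddit3 (CHOP) 2.27-fold higher and the leucine sensor Sesn2 1.85-fold higher. Phgdh and Psat1, which make serine, were 1.56-fold and 1.31-fold lower, and Chac1, which degrades glutathione, was 2.31-fold lower, all chosen after their values were seen. Atf4 itself was not called (limma adjusted p = 0.127). Of 37 genes of amino acid sensing by mTORC1, 5 rose and 5 fell (median -0.00). Fnip1 and its partner Flcn, which act on the Rag GTPases at the lysosome, were 2.27-fold and 2.08-fold higher, and the Ragulator subunit Lamtor3 was 1.47-fold lower. The 5 lower calls became 1 without null B or wild-type A, C or D and 3 without null A or wild-type B.

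Of 30 catabolic genes, 8 rose and 8 fell (median -0.23), with 5 lower calls when any 1 wild-type library was left out. For arginine, Arg2, the mitochondrial arginase, was 13.7-fold higher. Nos2, which makes nitric oxide from arginine, was 25.6-fold higher and Odc1, which makes putrescine from ornithine, was 3.20-fold higher, beside the higher Slc7a7 and Slc7a2 and the uncalled Slc7a1. Arg1, the cytosolic arginase, was not called at 6866 ± 1471 and 5464 ± 712 normalized counts (limma adjusted p = 0.163). For branched-chain amino acids, the cytosolic transaminase Bcat1 was 6.45-fold higher and the mitochondrial carrier Slc25a44 was 1.33-fold higher, beside higher Slc43a2 and lower Slc7a5. For taurine, Cdo1 and Csad, which make it from cysteine, were 3.19-fold and 1.53-fold lower, beside lower Slc6a6. Proline dehydrogenase Prodh was 1.67-fold lower beside Slc6a20a, and GABA transaminase Abat was 1.72-fold lower beside the higher Slc6a12 and Slc6a13. Glutamine synthetase Glul was 1.72-fold lower beside the higher Slc38a1 and Slc38a7 and the uncalled glutamine carriers Slc38a2 and Slc1a5. Apart from Arg2, Bcat1 and Cdo1, these enzymes, called or not, and Slc25a44 were chosen after their values were seen. Of the 30 catabolic genes 14 were not called. Enzymes and carriers were set side by side by substrate, and whether their differences are linked was not tested.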

How the data were processed

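Whole-cornea RNA of 4 Opn5-null and 4 wild-type samples was sequenced from stranded libraries depleted of ribosomal and globin RNA, per the labels' protocols. RSEM 1.3.1 was used, per the submitters' processing notes, and no source used here names the aligner, the genome build, the annotation or the strand setting. The deposited signal values are gene counts that the authors divided by 1 size factor per library: every value over its column's lowest nonzero entry was whole (100% within 0.001). The table also holds the authors' log2 differences and p-values (named so in its header), which called 11 members higher and 4 lower at their adjusted p-value below 0.05. Those not called by limma here were Slc7a6, higher, and Slc38a6, lower (the authors' adjusted p = 0.0404 and 0.0310).

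The test here was limma 3.58.1 (R 4.3.3; trend and robust) on log2(value + 1), a scale that understates the change of low genes, keeping the 16085 of 16091 genes that reached 1 in 4 libraries, without a block for the letters. Adjusted p-values are Benjamini-Hochberg values over all genes tested and tests are 2-sided. Folds are ratios of mean normalized counts. Levels per kilobase use the exon length of GENCODE M21 (GRCm38), which matched all 41 members and 16055 of 16091 identifiers. Values in every library are given for called members averaging 10 or more normalized counts in either genotype, the 2 most abundant members per kilobase of each family group, and Slc3a2, Slc7a5, Slc7a11, Slc7a1, Slc1a5 and Slc38a2. In each pathway list, up to 3 called genes of lowest p were named, and others are marked as chosen later. A gene kept in the counts of these lists is not reported here by name. Members and lists were chosen with earlier results of these data known.

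Simulated data over 16091 genes were also run through limma. It recovered 19.4% of 67 genes with 1.5-fold changes, 61.2% of 67 with 2-fold and 93.9% of 66 with 4-fold changes, beside 3 false calls. No other genes were changed, and both genotypes were given the same spread. In the data 32.4% of genes were called. Null libraries also differed more among themselves (chi-square per gene 44.8 to 196) than wild-type libraries (10.3 to 29.8). These rates therefore do not measure power or false calls in the data. Alternatives were edgeR 4.0.16 and DESeq2 1.42.0 on recovered reads, other scalings, filters, pseudocounts and thresholds, a block by letter, and libraries left out. Within a genotype, libraries differed by more than sampling noise (chi-square per gene 10.3 to 196).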

Additional observations from a re-analysis of the deposited data

How the results depend on the processing

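For the 22 members given library by library, 400 recomputed values kept their direction and side of the threshold, 9 became called, 26 lost the call and 4 turned sign. The 4 turns were all of Slc36a4, at -0.040 with quantile normalization, -0.065 with upper-quartile scaling, -0.048 without null replicate D (-0.048 to 0.12 with any 1 library left out) and -0.057 without both libraries lettered D.

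With quantile normalization and upper-quartile scaling, lower calls rose to 3746 and 3671 over all genes, 7 and 7 members, 8 and 9 of the mTORC1 list and 13 and 12 of the GCN2 and ATF4 list. The median log2 differences were then -0.50 (quantile) for the cationic group, -0.37 and -0.34 for Slc6, and 0.034 and 0.0067 for Slc36. With a filter at 1 CPM in 4 libraries the Slc38 median was 0.21, as fewer genes were tested.

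At an adjusted p below 0.01, higher and lower calls were 1818 and 702 over all genes, with 5 members higher. At 0.05 with a log2 of at least 1, they were 1770 and 670 over all genes and 6 and 1 among members. Under the same 2 thresholds the lists gave 3 and 3 higher and 0 and 0 lower (other carriers), 3 higher at a log2 of at least 1 and 1 and 0 lower (mTORC1), 5 and 4 higher and 3 and 2 lower (GCN2 and ATF4), 2 and 2 lower (glutathione), and 5 and 5 higher and 4 and 1 lower (catabolism).

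Without both libraries lettered D, lower calls were 3 for mTORC1, 3 for GCN2 and ATF4, 3 for glutathione and 5 for catabolism, and the Slc6 median was -0.034. Without trend or robust estimation the glutathione list had 3 lower calls.

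Leaving out 1 library at a time gave 2225 to 3365 higher and 1078 to 2540 lower calls over all genes, and 7 to 10 higher and 3 to 4 lower members. Lower calls ranged from 0 to 1 for other carriers, 1 to 5 for mTORC1, 2 to 4 for glutathione and 5 to 10 for catabolism. The medians ranged from -0.42 to -0.23 for the cationic group and -0.28 to -0.032 for Slc6, the value nearest 0 of each being without null D. Over all genes the lower calls were fewest without wild-type A (1078), C (1242) or D (1288).

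The letters A to D were not treated as pairs: deviations of same-letter libraries correlated at -0.16, -0.13, 0.14 and 0.13 for A to D. The fit with a replicate block called 8 members higher and 3 lower, 2545 and 1691 of all genes, and 2 glutathione genes lower, with Slc1a7 (adjusted p = 0.0645) and Slc43a3 (0.0580) losing their calls.

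The cause of these shifts was not tested. Slc43a3 and Slc1a7 lost their calls under the most alternatives, 12 of 20 and 8 of 19.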
